A study of Mus musculus with 24 samples.

Results

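The genes of the DNA replication machinery were followed through the first cleavages of mouse embryos with and without knockdown (KD) of MERVL, an endogenous retrovirus transcribed at the 2-cell stage. The 44 genes were listed by name for their roles in origin licensing, unwinding, polymerization, clamp loading and strand joining, and all 44 were found among the 55291 genes of the count files. Total RNA had been sequenced from control and MERVL-KD embryos at the 2-cell, 4-cell and 8-cell stages, with 2 libraries of 30 pooled embryos in each of the 6 groups. Zygotes came from 8-week-old B6D2F1 parents, and the labels give BDF2 as the background of the embryos, which differs from the reference genome. Every embryo had been microinjected at the zygote stage. MERVL-KD embryos had received a mixture of 3 antisense oligonucleotides (ASOs, which bind RNA by base pairing and bring about its degradation) against interspersed MERVL copies at 20 µM in the male pronucleus, and control embryos a scrambled ASO. The 2-cell embryos were collected at 1.5 and both later stages at 2.5 days post-coitum. Thus 4-cell and 8-cell embryos differed in their progress and not in their age. The study reports that MERVL-KD embryos lagged in development by the age of the later collection. Embryos matched by stage can therefore be slower ones in control and faster ones in MERVL-KD. The part of this selection in the 4-cell and 8-cell comparisons was not tested. ASOs that bind many copies of a repeat can also bind other transcripts that carry its sequence, which limits the knockdown as a model of the loss of MERVL alone. Stages had been checked under the microscope, which sets the number of cells. Within these cells, fewer that carry a transcript and less of it in each cannot be told apart.

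In each S phase, DNA is copied once. The origin recognition complex (ORC) marks origins, and with Cdc6 and Cdt1 it loads the ring of Mcm2 to Mcm7 as an inactive double hexamer. Geminin, encoded by Gmnn, binds Cdt1 and blocks a second loading. At the onset of S phase Cdc45 and GINS join the ring to form the active helicase, DNA polymerase alpha with its primase lays down primers, and DNA polymerases epsilon and delta extend the leading and lagging strands on the sliding clamp PCNA, which the RFC complex loads. Replication protein A (RPA) covers single-stranded DNA, and the flap nuclease FEN1 with DNA ligase 1 joins Okazaki fragments. Cleavage embryos divide without growing and start from stores made by the oocyte, while the embryonic genome is switched on at the 2-cell stage.

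Library totals ranged from 28167085 to 41482526 counts, of which repeat families took 15.8% to 25.2%, and the 44 genes held 0.307% to 0.404% of the counts of genes. As a check of the labels, the internal part of the target, annotated as MERVL-int, held 6.33% and 6.57% of the counts in control and 0.157% and 0.143% in MERVL-KD 2-cell libraries, and 1.07% to 2.07% against 0.0278% to 0.0544% in later libraries. Levels below are CPM (counts relative to the total of the library), scaled by the trimmed mean of M-values (TMM) over the 12 libraries. Scaling by library size alone would put the median log2 ratio of all genes at the 2-cell stage at 0.30, and changes are therefore given relative to the other genes. All 7 markers of the 2-cell embryo were lower in both MERVL-KD 2-cell libraries than in both controls, with a summed level of 352 and 443 CPM against 721 and 649, and so were 5 of 6 oocyte markers (741 and 836 against 1229 and 1150 CPM for the sum of the 6). The other oocyte marker, Zp3, was higher in both. Of 7 markers of the 8-cell embryo, 5 were higher and 1 lower in both MERVL-KD 2-cell libraries, and 4 were lower and 1 higher in both MERVL-KD 8-cell libraries, where their sum was 574 and 653 CPM against 798 and 765 in control. In both MERVL-KD 4-cell libraries 1 of these 7 was lower and 3 were higher. Of the 6 oocyte markers, 2 were lower and 3 higher there. The 7 markers of the 2-cell embryo had 2 lower and 1 higher at that stage. Among all tested genes, 33.7% had both MERVL-KD 2-cell values below both controls, and 23.8% had them above. For 4-cell libraries these shares were 26.4% and 28%, and for 8-cell libraries 25.9% and 23.6%. Over all libraries, 12 cumulus and granulosa cell markers summed to 21.0 to 28.6 CPM, most of it Amhr2. The 4 sperm markers summed to at most 1.40 CPM. No marker was at 0 in all 12 libraries. The part of these differences in the results below was not tested.

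All parts of the machinery were represented in RNA at every stage, but at levels that differed widely within a complex. Levels between genes are compared per kilobase (kb) of exon that is shared with no other gene, since counting left out reads that overlap 2 genes whatever their strand. Over the 12 libraries the median gene stood at 10.6 CPM per kb, 14 of 44 genes were under 5 CPM per kb, and 40 had at least 50 counts in every library. The most abundant transcripts were those of Gmnn (65.4 CPM per kb) and Pold3 (60.4), an accessory subunit of polymerase delta, and the least abundant that of its partner Pold4 (0.245, with 2 to 13 counts in a library). The 6 subunits of the helicase ring, each present once in the ring, differed least among the complexes of 3 or more genes, from 14.6 for Mcm5 to 44.8 CPM per kb for Mcm6. In the ORC the range ran from 3.09 (Orc3) to 35.8 (Orc6), and in the clamp loader from 1.54 (Rfc3) to 43.3 (Rfc1, its large subunit). Pola1, the catalytic subunit of polymerase alpha, stood at 25.5 CPM per kb and its accessory subunit Pola2 at 4.24. In polymerase epsilon Pole3, a histone-fold subunit, was highest (33.8) and Pole2 lowest (3.12). Rpa2 had the highest (12.1) and Rpa1, the largest DNA-binding subunit, the lowest level (2.97) in RPA. Some values rest on little sequence. Exons of other genes cover 84.2% of the exon bases of Fen1, 67.3% of Gins2, 29.8% of Orc2, 24.6% of Pold4 and 19.2% of Mcm9, and the counts of these genes come from the rest and are uncertain.

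**Figure D1:**
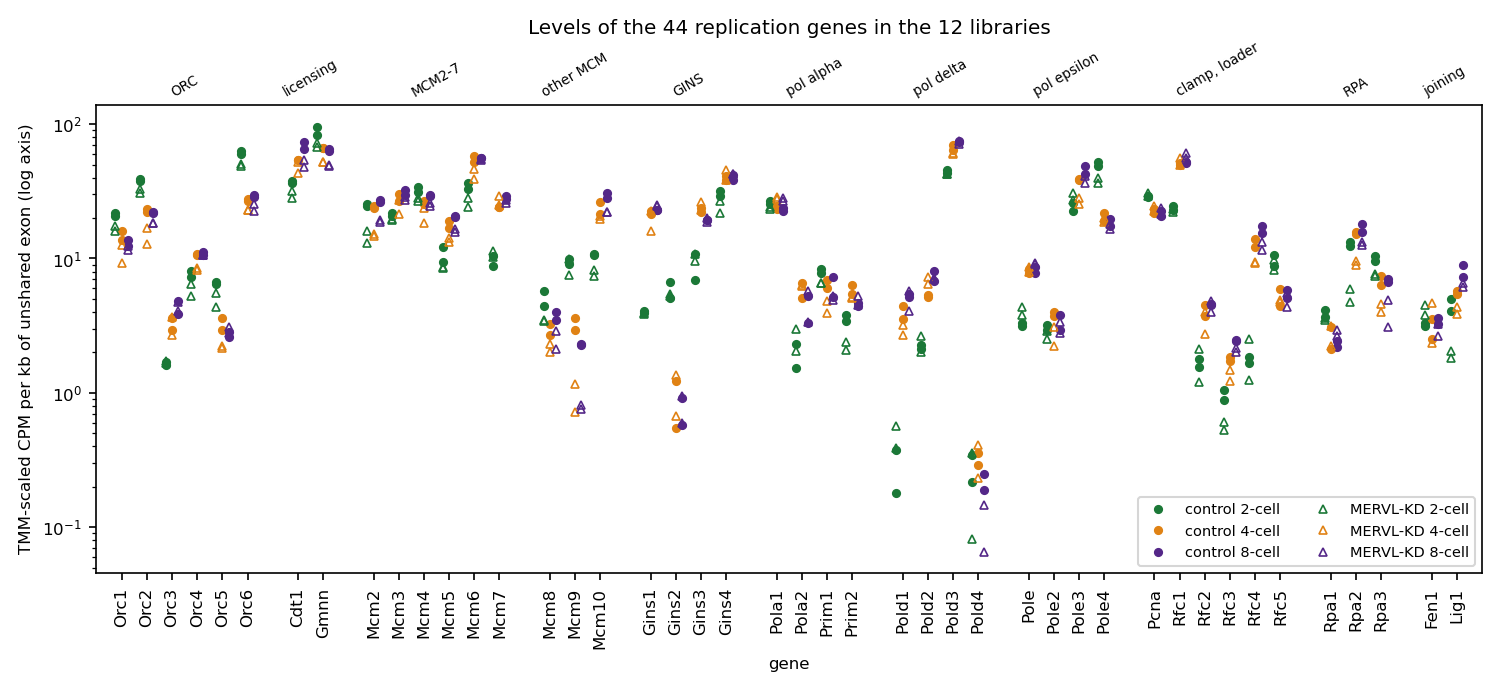
Level of each of the 44 genes in each of the 12 libraries, in TMM-scaled CPM per kb of exon shared with no other gene, on a log axis. Genes are ordered by complex, colours mark the stage, filled circles are control and open triangles MERVL-KD libraries. Levels run from below 1 CPM per kb for Pold4 to above 60 for Gmnn and Pold3.

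The licensing pair changed in opposite directions with the stage. Cdt1 had 114 and 118 CPM in 2-cell, 169 and 168 in 4-cell and 229.7 and 206 in 8-cell embryos in control, while Gmnn, its inhibitor, had 122 and 140.5 CPM in 2-cell, 97.9 and 98.0 in 4-cell and 92.5 and 96.1 in 8-cell embryos. Cdt1 rose and Gmnn fell from the 2-cell to the 4-cell stage, each by less than 2-fold (log2 fold change 0.54, edgeR adjusted p = 0.00028 for Cdt1, log2 fold change −0.42, edgeR adjusted p = 0.00134 for Gmnn). Per kb, the level of Gmnn was 2.43 times that of Cdt1 in control 2-cell, 1.24 times in 4-cell and 0.928 times in 8-cell embryos. In MERVL-KD embryos the same ratio was 2.32, 1.10 and 0.967.

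The largest differences among the 44 genes lay between the control 2-cell and 4-cell stages, with 11 called higher and 5 lower, where a called gene passed both an edgeR adjusted p of 0.05 and a 2-fold difference. Of all 24040 genes tested, 20.7% were called higher and 24.3% lower, 45% in all, against 36.4% of the 44. The median log2 fold change of the 44 was 0.36 and that of all genes −0.06. At the adjusted p alone, 22 of the 44 were higher and 13 lower (26.4% and 28.7% of all genes, 55.1% in all). With the stages in one fit, these values are relative to the RNA of the library and not amounts per embryo.

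Polymerase and clamp loader subunits led the rise. Pold1, the catalytic subunit of polymerase delta, stood at 1.82 and 0.881 CPM in 2-cell, 17.3 and 21.6 in 4-cell and 24.96 and 26.3 in 8-cell embryos in control libraries. The 2-cell and later libraries were far apart (log2 fold change 3.86, SE 0.29, edgeR adjusted p = 3.89e-10). Rfc4, a small subunit of the clamp loader, had 2.23 and 2.48 CPM in 2-cell, 16.2 and 18.8 in 4-cell and 23.3 and 20.8 in 8-cell embryos (log2 fold change 2.89, SE 0.26, edgeR adjusted p = 4.05e-09). Gins1 of the GINS complex went from 6.19 and 5.95 to 32.5 and 34.2 CPM (log2 fold change 2.46, SE 0.18, edgeR adjusted p = 9.14e-11). The 2-cell values of these 3 genes lay below all values of the later stages. In MERVL-KD libraries, Pold1 had 2.76 and 1.89, then 15.5 and 13.1, then 28.0 and 19.6 CPM from stage to stage. Rfc4 had 1.66 and 3.37, then 12.3 and 12.6, then 17.8 and 15.6 CPM and Gins1 5.89 and 5.94, then 34.1 and 24.1, then 37.3 and 38.2 CPM. The other genes called higher were Pola2 (1.61), Gins3 (1.38), Mcm7 (1.34), Pole (1.33), Rfc2 (1.30), Pold2 (1.26), Mcm10 (1.16), which takes part in activating the helicase, and Rfc1 (1.09). Among the helicase ring Mcm5, Mcm6 and Mcm3 were higher by less than 2-fold (0.74, 0.66 and 0.43), Mcm4 lower (−0.33), and Mcm2 stood at −0.04 (edgeR adjusted p = 0.776).

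The genes called lower included 2 of the 6 ORC subunits, Orc6 (−1.18) and Orc5 (−1.01). Orc1 and Orc2 were lower by less than 2-fold, and Orc3 (0.98) and Orc4 (0.48) higher by less than 2-fold. Gins2 had 6.86 and 8.97 CPM in 2-cell, 1.65 and 0.730 in 4-cell and 1.23 and 0.771 in 8-cell embryos in control (log2 fold change −2.72, SE 0.43, edgeR adjusted p = 1.45e-05), on the part of its exons that is its own. Mcm9, a helicase that acts with Mcm8 in recombination repair, had 73.2 and 66.9 CPM in 2-cell, 26.6 and 21.6 in 4-cell and 16.6 and 16.9 in 8-cell embryos (log2 fold change −1.54, SE 0.18, edgeR adjusted p = 3.28e-07). Pole4, a histone-fold subunit of polymerase epsilon, had 130.4 and 123 CPM in 2-cell, 48.0 and 54.8 in 4-cell and 43.8 and 49.3 in 8-cell embryos (log2 fold change −1.30, SE 0.12, edgeR adjusted p = 4.03e-09), so within that complex Pole rose and Pole4 fell. In MERVL-KD libraries Gins2 had 7.34 and 7.10, then 1.81 and 0.906, then 1.27 and 0.795 CPM and Pole4 92.2 and 100.1, then 47.3 and 50.2, then 45.7 and 41.3 CPM. For Gins2, Mcm9 and Pole4 both 2-cell libraries lay above all 4 later control libraries. Pcna, the clamp itself, fell by less than 2-fold (log2 fold change −0.36, edgeR adjusted p = 0.0116) while 4 of the 5 loader subunits were higher at the adjusted p. The call of Orc5 was not made with library size alone, where Orc3 and Rfc3 were called higher in addition.

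From the 4-cell to the 8-cell stage no member was called in control embryos at this depth, by edgeR or by DESeq2, where 1.56% of all genes were called by edgeR. An unadjusted p under 0.05 was reached by 7 of 44, against 19.3% of all genes. The largest log2 fold changes upwards were those of Lig1 (0.55, edgeR adjusted p = 0.0552), Pold2 (0.51, edgeR adjusted p = 0.169) and Rfc3 (0.47, edgeR adjusted p = 0.323). In control, Pold2 stood at 4.27 and 4.02 CPM in 2-cell, 10.1 and 9.76 in 4-cell and 15.4 and 12.9 in 8-cell embryos, and Rfc3 at 3.76 and 3.22 CPM in 2-cell, 6.70 and 6.18 in 4-cell and 8.85 and 8.98 in 8-cell embryos. Downwards they were those of Pold4 (−0.55), Mcm9 (−0.53) and Pola2 (−0.46), with adjusted p from edgeR of 0.872, 0.102 and 0.498. Pola2 varied between replicates (12.6 and 19.2 CPM in 2-cell, 54.8 and 42.2 in 4-cell and 43.2 and 27.4 in 8-cell embryos).

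**Figure D2:**
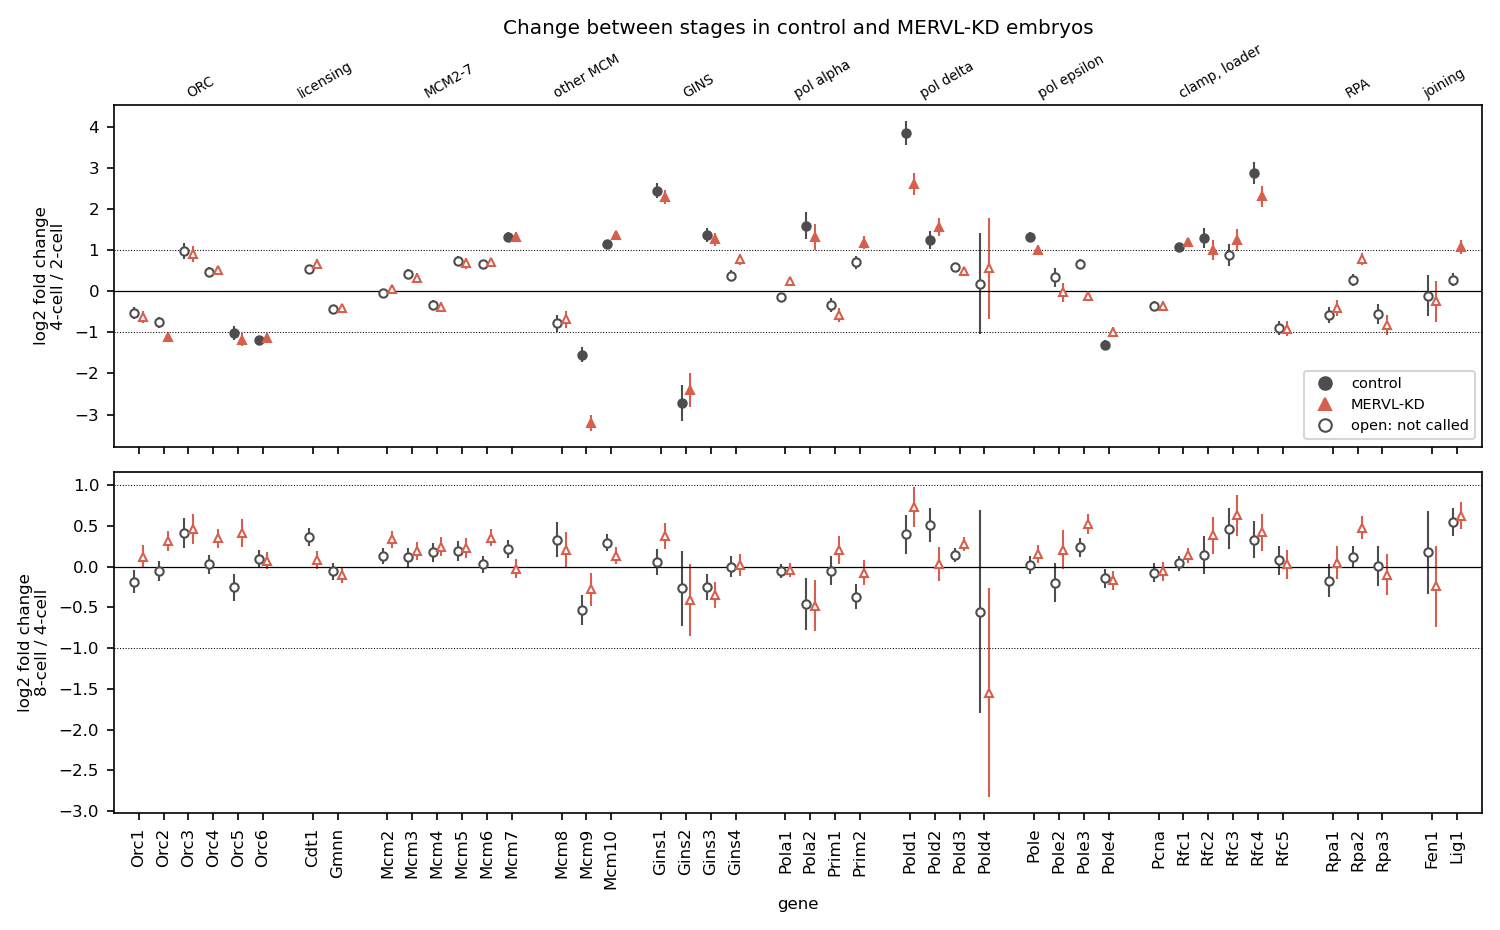
Log2 fold change with its standard error for each gene from the 2-cell to the 4-cell stage (top) and from the 4-cell to the 8-cell stage (bottom), in control (circles) and MERVL-KD embryos (triangles). Filled symbols are called, open ones are not, and dotted lines mark 2-fold. The largest changes lie in the first step, from −2.72 (Gins2) to 3.86 (Pold1) in control, and no gene is called in the second. At the adjusted p alone, 3 genes are higher in the second MERVL-KD step.

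The genes with the lowest and highest level of each complex that were not yet described are given here in every library. Orc3 had 9.79 and 10.3 CPM in 2-cell, 18.0 and 21.8 in 4-cell and 29.4 and 23.6 in 8-cell embryos of the control group, and 10.5 and 10.2, then 22.4 and 16.4, then 24.7 and 28.8 in MERVL-KD embryos of these stages. Orc6 had 139 and 145 CPM in 2-cell, 63.2 and 61.7 in 4-cell and 65.4 and 68.4 in 8-cell embryos of the control group, and 117 and 113, then 52.5 and 52.7, then 52.2 and 58.6 in MERVL-KD embryos of these stages. The 8-cell levels of Orc3 were above, and those of Orc6 below, all 2-cell levels in both conditions. Mcm8, the partner of Mcm9, had 21.4 and 16.4 CPM in 2-cell, 10.1 and 12.02 in 4-cell and 12.9 and 14.9 in 8-cell embryos of the control group, and 13.0 and 12.7, then 8.54 and 7.48, then 10.7 and 7.87 in MERVL-KD embryos of these stages. Gins4 had 39.2 and 43.0 CPM in 2-cell, 52.0 and 55.7 in 4-cell and 51.4 and 56.5 in 8-cell embryos of the control group, and 29.4 and 36.4, then 51.6 and 61.6, then 57.3 and 57.5 in MERVL-KD embryos of these stages. In both conditions the Mcm8 values were highest in 2-cell embryos, and those of Gins4 lowest. Pola1 had 226 and 237 CPM in 2-cell, 206 and 216 in 4-cell and 199 and 209 in 8-cell embryos of the control group, and 213 and 206, then 253 and 246, then 237 and 249 in MERVL-KD embryos of these stages. Its partner Pola2 had 24.8 and 17.1, then 53.0 and 52.0, then 27.8 and 47.6 CPM in MERVL-KD. MERVL-KD values of Pola1 lay below control in 2-cell and above it in later embryos, but no stage passed the adjusted p. Its log2 fold changes were −0.06, 0.25 and 0.26 by stage (edgeR adjusted p = 0.731, 0.106 and 0.102). Nor did the MERVL-KD effect on Pola1 differ between stages at the adjusted p. Pold3 had 209 and 199 CPM in 2-cell, 295 and 324 in 4-cell and 340.2 and 344 in 8-cell embryos of the control group, and 197 and 196, then 276 and 279.9, then 347 and 328 in MERVL-KD embryos of these stages. Pold4 was at or under 13 counts in every library (0.191 and 0.303 CPM in 2-cell, 0.255 and 0.313 in 4-cell and 0.218 and 0.168 in 8-cell embryos of the control group, and 0.0713 and 0.311, then 0.357 and 0.205, then 0.0577 and 0.128 in MERVL-KD embryos of these stages), too few to tell groups apart. Pole2 had 8.39 and 7.73 CPM in 2-cell, 10.5 and 9.87 in 4-cell and 7.76 and 10.1 in 8-cell embryos of the control group, and 6.58 and 7.66, then 8.16 and 5.84, then 7.36 and 8.85 in MERVL-KD embryos of these stages. Pold3 was lowest in 2-cell embryos of both conditions, whereas the control values of Pole2 in 8-cell embryos overlapped those of both earlier stages. Of the clamp loader, Rfc1 had 147 and 137 CPM in 2-cell, 297 and 308 in 4-cell and 311 and 314 in 8-cell embryos of the control group, and 134 and 142, then 337 and 300.4, then 339.6 and 365 in MERVL-KD embryos of these stages. In RPA, Rpa1 had 22.7 and 20.2 CPM in 2-cell, 17.1 and 11.7 in 4-cell and 13.4 and 12.2 in 8-cell embryos of the control group, and 19.4 and 20.0, then 17.4 and 12.3, then 16.2 and 14.5 in MERVL-KD embryos of these stages, and its groups overlapped at the 4-cell stage. Fen1, read on a small part of its exons, had 1.28 and 1.21 CPM in 2-cell, 0.965 and 1.35 in 4-cell and 1.38 and 1.24 in 8-cell embryos of the control group, and 1.45 and 1.73, then 0.906 and 1.78, then 1.01 and 1.26 in MERVL-KD embryos of these stages, with overlap at the 4-cell and 8-cell stages.

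Promoters of replication genes are known for sites of the E2F factors, which switch on genes for S phase. RefSeq promoters on GRCm38.p6, from 250 bases before to 50 bases after a transcript start, were at hand for 36 of the 44 genes. One of the words TTTCCCGC, TTTGGCGC, TTTCGCGC or TTTGCCGC, read on both strands and counted where they overlap, stood in a promoter of 16 of the 36 (44.4%), against 704 of 27025 genes with a promoter (2.605%). Counted per promoter, the share was 17 of 45 (37.8%) against 2.26% of all promoters, and the median GC content was 61.3% against 52.7%. Shown are those of Mcm6 (the most matches, chr1:128359656-128359955, minus strand), Rfc3 (2 matches at the start site, chr5:151651159-151651458, minus strand), Pold1 (the largest rise, chr7:44548766-44549065, minus strand) and Lig1 (lower in MERVL-KD, one of 3 starts, chr7:13278576-13278875, plus strand). They are written 5′ to 3′ on the strand of the gene, and capitals mark the words.
Mcm6: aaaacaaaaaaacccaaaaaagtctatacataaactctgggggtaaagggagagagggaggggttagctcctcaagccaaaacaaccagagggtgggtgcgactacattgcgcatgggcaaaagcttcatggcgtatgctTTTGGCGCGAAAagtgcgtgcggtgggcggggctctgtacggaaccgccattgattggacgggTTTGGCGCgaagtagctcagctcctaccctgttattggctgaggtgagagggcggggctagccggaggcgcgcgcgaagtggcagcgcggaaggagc
Rfc3: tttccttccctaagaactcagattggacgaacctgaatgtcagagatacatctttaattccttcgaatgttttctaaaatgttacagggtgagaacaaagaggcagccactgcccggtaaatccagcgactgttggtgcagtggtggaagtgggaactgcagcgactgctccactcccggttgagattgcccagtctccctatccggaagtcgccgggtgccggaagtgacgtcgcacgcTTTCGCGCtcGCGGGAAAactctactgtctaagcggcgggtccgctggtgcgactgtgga
Pold1: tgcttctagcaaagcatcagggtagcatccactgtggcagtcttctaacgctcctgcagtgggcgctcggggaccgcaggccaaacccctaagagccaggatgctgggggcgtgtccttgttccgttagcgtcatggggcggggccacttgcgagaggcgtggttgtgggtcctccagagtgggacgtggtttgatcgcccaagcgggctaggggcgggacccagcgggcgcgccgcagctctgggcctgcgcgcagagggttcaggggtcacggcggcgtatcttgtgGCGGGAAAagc
Lig1: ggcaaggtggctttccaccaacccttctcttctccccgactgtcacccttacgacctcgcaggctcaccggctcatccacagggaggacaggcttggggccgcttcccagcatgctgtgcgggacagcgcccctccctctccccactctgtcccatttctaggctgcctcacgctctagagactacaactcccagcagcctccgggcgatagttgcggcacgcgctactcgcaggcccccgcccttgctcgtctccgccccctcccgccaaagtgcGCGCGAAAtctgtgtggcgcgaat
In Mcm6 a pair of the 3 matches overlap on opposite strands. From the control 2-cell to the 4-cell stage, the 16 genes with a word had a median log2 fold change of 0.57 (3 called higher, 1 lower) and the 20 without a word of −0.07 (5 higher, 3 lower). Of all genes tested, 20.7% were called higher and 24.3% lower in this step. In MERVL-KD against control embryos the medians were −0.16 and −0.04 at the 2-cell, −0.29 and −0.30 at the 4-cell and −0.11 and −0.22 at the 8-cell stage, with and without a word, where 19, 20 and 19 genes without a word were tested. These are descriptions of letters, not of bound factors. Of the genes called in MERVL-KD, Rpa2 and Mcm9 held no word in this window and Lig1 held one in 1 of 3 promoters.

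In MERVL-KD 2-cell embryos 2 of 43 tested genes were called lower, Rpa2 and Lig1, and none higher, while of all 20604 genes tested 2.24% were called lower and 4.37% higher, 6.61% in all. Rpa2, on chromosome 4 of GRCm38 from 132768332 to 132778752, encodes the middle subunit of RPA. It had 37.0 and 39.6 CPM in control and 14.3 and 17.7 in MERVL-KD libraries (log2 fold change −1.18, SE 0.14, edgeR adjusted p = 4.64e-05). Lig1, the ligase that seals Okazaki fragments (chromosome 7, 13277283 to 13311433), had 20.1 and 16.4 CPM in control and 8.18 and 7.35 in MERVL-KD (log2 fold change −1.15, SE 0.18, edgeR adjusted p = 0.00052). Both groups were well apart for both genes. Without control replicate 1, Lig1 was at −0.997 on the log2 scale, just short of 2-fold, and with library size alone Rpa2 was at −0.89 and Lig1 at −0.86, so neither was called. At the adjusted p alone 7 genes were lower and 1 higher, against 7.39% and 6.7% of all genes (14.1% in all), and 18 of 43 had an unadjusted p under 0.05, against 27% of all genes.

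The genes under 2-fold at the 2-cell stage came from several steps. Mcm2, a subunit of the helicase ring, had 171 and 177 CPM in control and 90.1 and 111 in MERVL-KD (log2 fold change −0.71, SE 0.10, edgeR adjusted p = 0.000209). Mcm10 had 83.3 and 82.0 CPM in control and 56.8 and 62.7 in MERVL-KD (log2 fold change −0.39, edgeR adjusted p = 0.0187), and Prim2, the large subunit of the primase, 20.2 and 22.7 CPM in control and 14.3 and 12.4 in MERVL-KD (log2 fold change −0.60, edgeR adjusted p = 0.0193). In all 3 the MERVL-KD libraries lay below the controls. Pole, the catalytic subunit of polymerase epsilon, went the other way, with 36.8 and 34.6 CPM in control and 48.4 and 42.4 in MERVL-KD (log2 fold change 0.43, edgeR adjusted p = 0.0279). Mcm6 (−0.32) and Pole4 (−0.31) were lower as well, with 154 and 170.0 CPM in control and 131 and 113 in MERVL-KD for Mcm6. Pold1 had 1.82 and 0.881 CPM in control and 2.76 and 1.89 in MERVL-KD and stood at 0.88 on the log2 scale (SE 0.42, edgeR adjusted p = 0.197) on 32 counts in its lowest library. Pcna, at 69.7 and 69.3 CPM in control and 70.1 and 73.6 in MERVL-KD, had a log2 fold change of 0.13 (SE 0.10). Pold4 was not tested at this stage.

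In MERVL-KD 4-cell embryos 1 of 44 genes was called, Mcm9, lower, against 1.88% of 19738 genes lower, 2.66% higher and 4.54% in either direction. Mcm9 (chromosome 10, 53536315 to 53630439, minus strand) had 26.6 and 21.6 CPM in control and 8.62 and 5.35 in MERVL-KD (log2 fold change −1.78, SE 0.24, edgeR adjusted p = 0.000701). Both MERVL-KD values were far below both control values. At the adjusted p alone 5 of 44 were lower and none higher (5.84% and 4.92% of all genes, 10.8% in all). Mcm2 had 172 and 167 CPM in control and 102 and 107 in MERVL-KD (log2 fold change −0.69, edgeR adjusted p = 0.000792) and Rpa2 47.1 and 45.7 CPM in control and 28.5 and 27.0 in MERVL-KD (log2 fold change −0.74, edgeR adjusted p = 0.00423). The groups did not overlap for either. Pole3 had 78.6 and 79.1 CPM in control and 57.8 and 52.0 in MERVL-KD (log2 fold change −0.52, edgeR adjusted p = 0.0135), and Orc2, an ORC subunit, 59.8 and 63.0 CPM in control and 45.5 and 34.6 in MERVL-KD (log2 fold change −0.61, edgeR adjusted p = 0.02). Gmnn, next in order, had 97.9 and 98.0 CPM in control and 77.2 and 77.2 in MERVL-KD (log2 fold change −0.34, edgeR adjusted p = 0.053). In the helicase ring the 6 values ran from −0.69 (Mcm2) to 0.16 (Mcm7), and 5 of 6 were negative.

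In MERVL-KD 8-cell embryos 1 of 43 tested genes was called, again Mcm9, lower, against 1.06% of 18414 genes lower, 0.641% higher and 1.7% in either direction. Its values were 16.6 and 16.9 CPM in control and 5.60 and 5.95 in MERVL-KD (log2 fold change −1.53, SE 0.19, edgeR adjusted p = 0.000727), with no overlap. At the adjusted p alone 4 of 43 were lower and none higher (3.56% and 1.5% of all genes, 5.06% in all). Mcm2 had 183 and 189 CPM in control and 134 and 131 in MERVL-KD (log2 fold change −0.48, edgeR adjusted p = 0.0089), Mcm10 237 and 216 CPM in control and 171 and 169.6 in MERVL-KD (log2 fold change −0.40, edgeR adjusted p = 0.0234) and Cdt1 229.7 and 206 CPM in control and 149 and 170.0 in MERVL-KD (log2 fold change −0.44, edgeR adjusted p = 0.0251). All MERVL-KD values of these 3 were below the controls. Gmnn had 92.5 and 96.1 CPM in control and 72.9 and 71.1 in MERVL-KD (log2 fold change −0.38, edgeR adjusted p = 0.0503) and Mcm5 83.2 and 81.4 CPM in control and 63.0 and 65.8 in MERVL-KD (log2 fold change −0.35, edgeR adjusted p = 0.0777). Rpa3, the smallest RPA subunit, had 7.65 and 8.01 CPM in control and 3.49 and 5.59 in MERVL-KD (log2 fold change −0.77, edgeR adjusted p = 0.131), and without MERVL-KD replicate 2 it was called lower too, 2 genes in all. Pold4 was not tested.

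**Figure D3:**
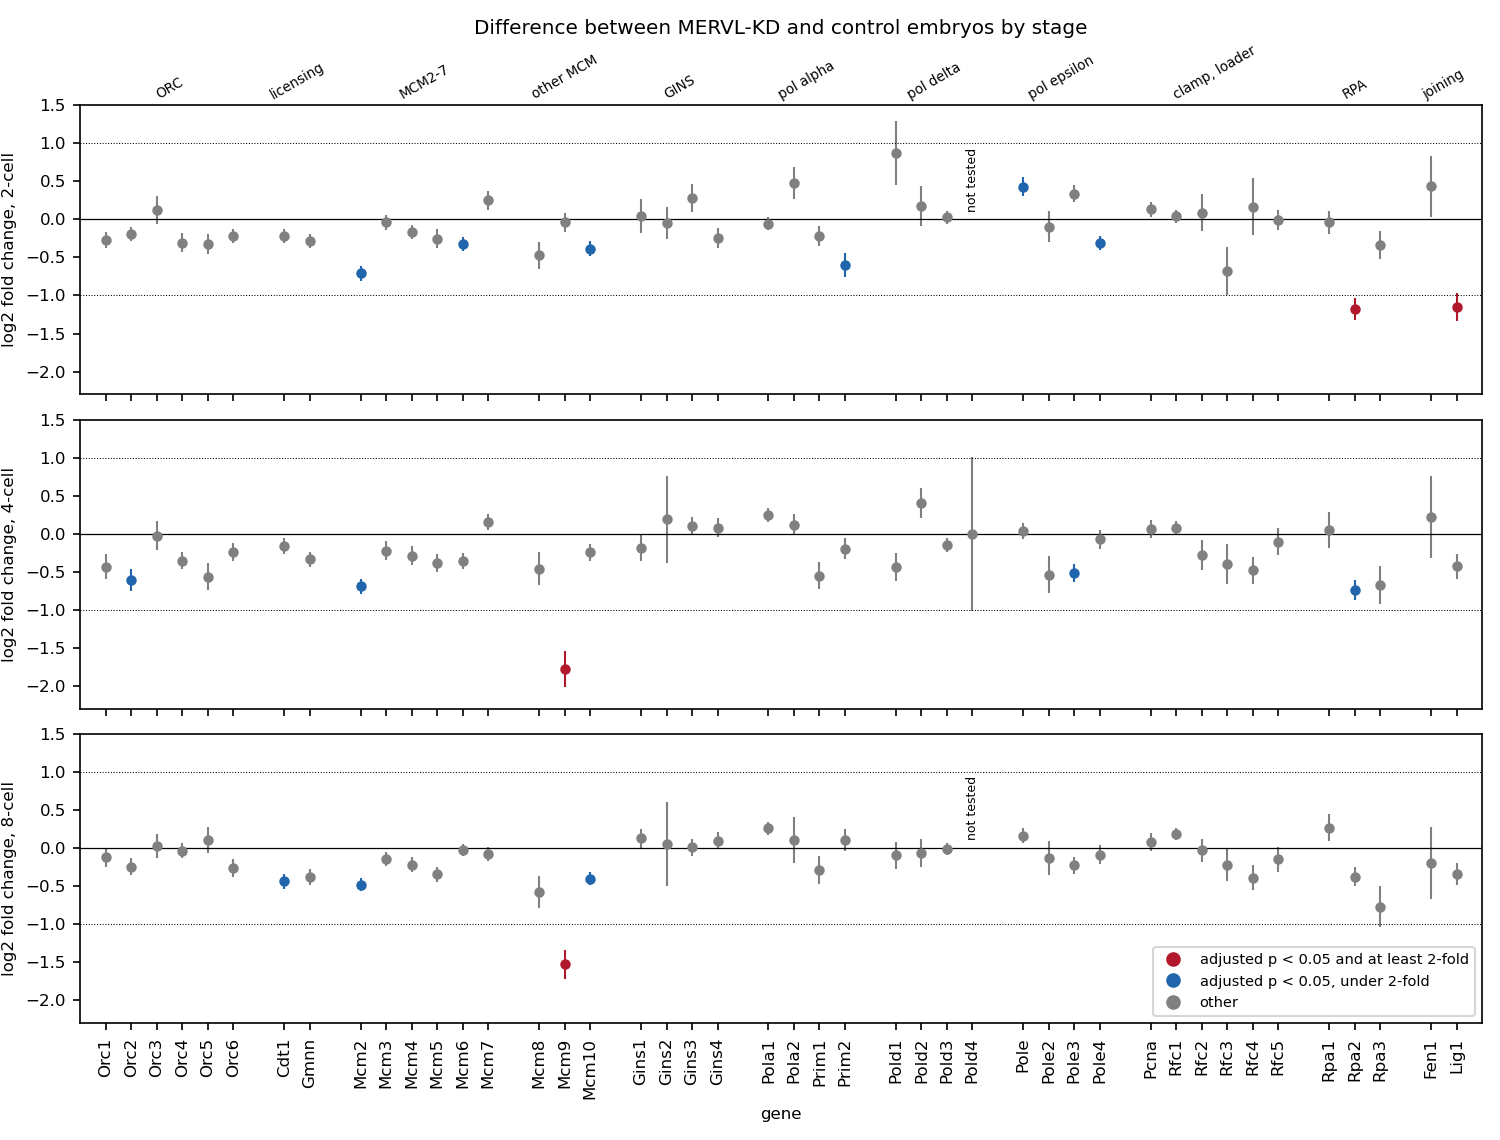
Log2 fold change with its standard error of MERVL-KD against control embryos for each gene, by stage from top to bottom. Red marks genes called, blue those with an adjusted p under 0.05 and less than 2-fold, grey the rest, and dotted lines mark 2-fold. Rpa2 and Lig1 are red at the 2-cell stage and Mcm9 at the 4-cell and 8-cell stages.

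Over the whole machinery the differences were small and leaned downwards. The median log2 fold change of the tested members was −0.10, −0.24 and −0.12 at the 2-cell, 4-cell and 8-cell stages, against 0.01, 0.03 and 0.01 over all genes. Values were negative for 28 of 43, 32 of 44 and 30 of 43, while 51.2%, 51.9% and 50.5% of all genes were positive. Both MERVL-KD libraries lay below both controls for 27, 25 and 21 of the 44 genes, against 33.7%, 26.4% and 25.9% of all genes, and above them for 5, 3 and 6 (23.8%, 28% and 23.6%). These counts and shares use CPM scaled over the 12 libraries, where the median log2 ratio of all genes at the 2-cell stage was −0.07. They count Gins1 and Pold3 as lower at the 2-cell stage, although their log2 fold changes in the fit of that stage were 0.05 and 0.03. The counts cover all 44 members, whereas the shares cover tested genes alone. The 21 at the 8-cell stage thus include Pold4, which was not tested there. With library size alone the median turned to 0.19 in 2-cell and to 0.00 in 8-cell embryos, but relative to the median of all genes under the same scaling it was −0.11 and −0.13. The median of the 2-cell stage moved by more than 1.5 times under other settings, to −0.19 without control replicate 1, −0.21 without MERVL-KD replicate 2, −0.22 with the 12 libraries in 1 fit and −0.15 with DESeq2, and relative to all genes it ranged from −0.22 to −0.09. Among the complexes, the 4 GINS genes held none past the adjusted p, with values of −0.24 to 0.28 at the 2-cell, −0.19 to 0.19 at the 4-cell and 0.01 to 0.13 at the 8-cell stage. Polymerase delta and the clamp with its loader held none either. The 6 ORC genes lay between −0.32 and 0.12 in 2-cell, −0.61 and −0.03 in 4-cell and −0.26 and 0.11 in 8-cell embryos, so in 4-cell embryos all 6 were negative while Orc2 alone passed the adjusted p. RPA had medians of −0.33, −0.67 and −0.38, and of its 3 genes Rpa2 passed the adjusted p at the 2-cell and 4-cell stages. Of Mcm8, Mcm9 and Mcm10 the medians were −0.39, −0.46 and −0.58.

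Mcm2 was the single gene with an adjusted p under 0.05 at every stage, always under 2-fold. The 3 comparisons used separate embryos and separate controls. Rpa2 was closest to control at the 8-cell stage, at 53.9 and 47.2 CPM in control and 39.4 and 37.9 in MERVL-KD (log2 fold change −0.38, edgeR adjusted p = 0.115), and so was Lig1, at 35.9 and 29.4 CPM in control and 26.4 and 24.8 in MERVL-KD (log2 fold change −0.34, edgeR adjusted p = 0.227). At the 4-cell stage Lig1 stood at 21.7 and 22.9 CPM in control and 17.5 and 15.5 in MERVL-KD (log2 fold change −0.43, edgeR adjusted p = 0.125).

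**Figure D4:**
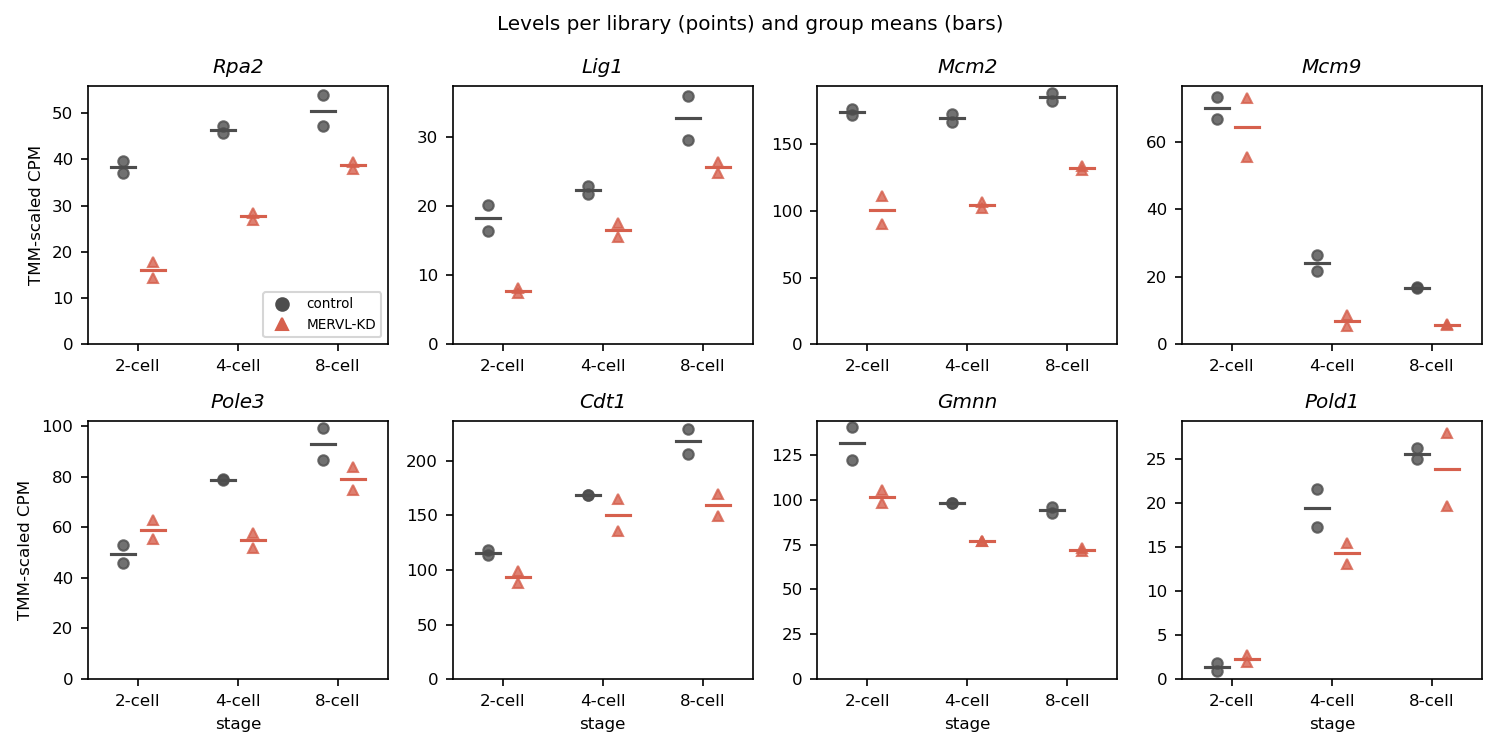
TMM-scaled CPM of 8 genes in each library (points) with the group means (bars), control in grey circles and MERVL-KD in red triangles, by stage, on linear axes from 0. Both MERVL-KD points lie below both control points for Rpa2, Lig1, Mcm2, Cdt1 and Gmnn at each stage. For Mcm9 they do so from the 4-cell stage on, and Pold1 is higher in later than in 2-cell embryos of both conditions.

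Mcm9 was the single member whose lower level was accompanied by sequence that matches the injected ASOs. Sites for the 3 ASOs were sought on GRCm38 in the transcribed strand of each gene body with up to 2 mismatches. Mcm9 carried one for each ASO, all in the intron of 29.7 kb between its merged exons 10 and 11, between 54.9 and 56.8 kb from its start. No other member had one, nor had any of 54 further genes of the pathway, against 152 of 19988 genes with a mean of at least 10 counts (0.76%). The sites are given 5′ to 3′ as in the transcript, with the mismatch in capitals.
Mcm9, MERVL-ASO1 site, chr10:53575478-53575497: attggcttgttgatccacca
Mcm9, MERVL-ASO2 site, chr10:53573905-53573924: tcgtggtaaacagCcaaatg
Mcm9, MERVL-ASO3 site, chr10:53573653-53573672: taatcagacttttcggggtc
The sites of MERVL-ASO1 and MERVL-ASO3 match their ASO in all 20 bases, and that of MERVL-ASO2 differs by A14C, counted from 1 at the 5′ end of the site. Of the tested genes with such a site, 50 of 156 were called lower at the 2-cell stage (32.1%), 60 of 147 at the 4-cell (40.8%) and 49 of 141 at the 8-cell stage (34.8%), against 2.01%, 1.59% and 0.799% of genes without one. These counts did not separate sites in exons from sites in introns, so transcripts made of MERVL sequence can be among them. The share for genes with sites in introns alone, as in Mcm9, was not measured. Mcm9 itself was not called at the 2-cell stage, with 73.2 and 66.9 CPM in control and 55.6 and 73.2 in MERVL-KD (log2 fold change −0.04, edgeR adjusted p = 0.886) and overlapping groups. Asf1a, which overlaps exons of Mcm9 on the other strand, had 15.8 and 17.2 CPM in control and 18.2 and 22.1 in MERVL-KD 4-cell libraries, so it was not lower where Mcm9 was. The part of the ASO sites in the level of Mcm9 was not tested.

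**Figure D5:**
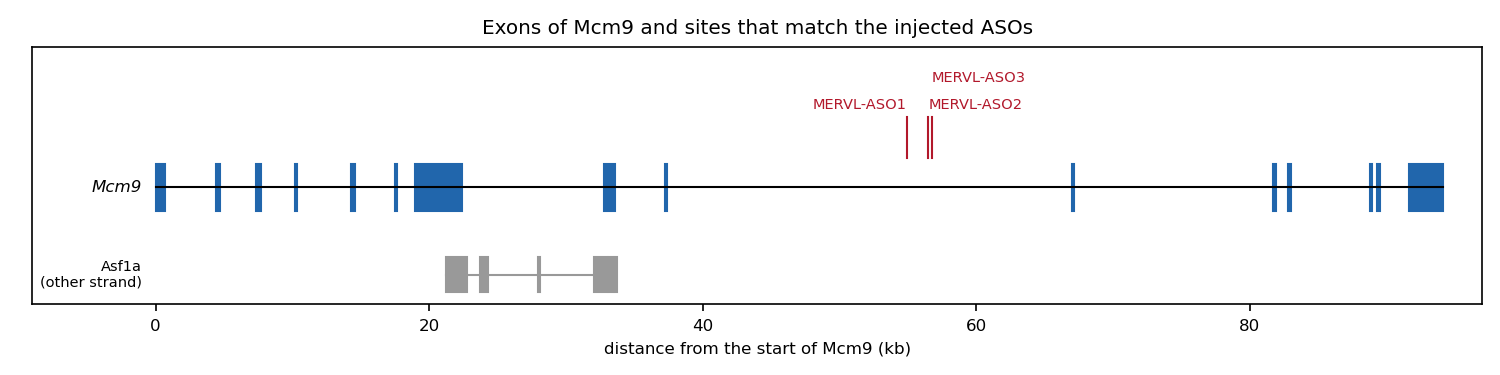
Merged exons of Mcm9 (blue) along the distance in kb from its start, with the exons of Asf1a on the other strand (grey) and the places that match MERVL-ASO1, MERVL-ASO2 and MERVL-ASO3 (red lines). The 3 sites lie in 1 intron, between 54.9 and 56.8 kb, apart from the exons shared with Asf1a.

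The difference between stages was tested itself as an interaction in the fit of the 12 libraries. Between the 2-cell and the 4-cell stage the MERVL-KD effect differed for 1 of 44 genes at 2-fold, Mcm9 (log2 fold change −1.66, SE 0.26, edgeR adjusted p = 0.0008), against 2.3% of 24040 genes. Pole3 passed the adjusted p under 2-fold (log2 fold change −0.78, SE 0.17, edgeR adjusted p = 0.0124). It stood at 45.8 and 53.2 CPM in control and 62.7 and 55.2 in MERVL-KD at the 2-cell stage, above control, and below control at the 4-cell stage. At the adjusted p alone 2 of 44 genes passed against 4.16% of all genes. Pold1 (log2 fold change −1.25, SE 0.39, edgeR adjusted p = 0.0775) was called by DESeq2, with library size alone, with a filter of at least 1 count, without control 2-cell replicate 1 and without MERVL-KD 2-cell replicate 2. For Lig1 the interaction was 0.80 (edgeR adjusted p = 0.0665) and for Rpa2 0.52 (edgeR adjusted p = 0.156), so a smaller effect at the 4-cell stage was not shown for either. Between the 4-cell and the 8-cell stage no gene passed in edgeR or DESeq2, where edgeR called 0.42% of all genes, and 2 of 44 had an unadjusted p under 0.05, against 11.4% of all genes.

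In MERVL-KD embryos, 14 of the 44 were called higher and 5 lower from the 2-cell to the 4-cell stage, against 21.2% and 23% of all genes (44.1% in all). The largest were Pold1 (2.61), Rfc4 (2.32) and Gins1 (2.30) upwards and Mcm9 (−3.20) and Gins2 (−2.40) downwards. Lig1 (1.09), Prim2 (1.19) and Rfc3 (1.25) were called higher and Orc2 (−1.10) lower in this step, and their control changes were 0.29, 0.71, 0.88 and −0.76. The differences between these steps are the interaction above. From the 4-cell to the 8-cell stage none was called by edgeR or DESeq2 (1.64% of all genes by edgeR), 15 of 44 had an unadjusted p under 0.05, against 18.2% of all genes, and at the adjusted p alone Lig1 (log2 fold change 0.63, edgeR adjusted p = 0.0355), Rpa2 (log2 fold change 0.48, edgeR adjusted p = 0.0484) and Pole3 (log2 fold change 0.53, edgeR adjusted p = 0.0159) were higher, against 2.27% of all genes.

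Of 54 further genes of the pathway, 52, 53 and 53 were tested at the 3 stages. Tk1, thymidine kinase 1, was the single one called at the 2-cell stage, with 6.79 and 6.41 CPM in control and 13.6 and 12.9 in MERVL-KD (log2 fold change 1.09, edgeR adjusted p = 0.000943). That is 1 of 52, against 6.61% of all genes called at this stage. At the 4-cell stage Atr, the kinase of the replication checkpoint, had 26.2 and 29.3 CPM in control and 13.8 and 13.4 in MERVL-KD (log2 fold change −1.02, edgeR adjusted p = 0.00194), and Tfdp2, which pairs with E2F factors, 29.8 and 29.9 CPM in control and 10.5 and 8.24 in MERVL-KD (log2 fold change −1.66, edgeR adjusted p = 0.000134), both called lower. These were 2 of 53, against 4.54% of all genes called at this stage. None was called at the 8-cell stage by edgeR, where 1.7% of all genes were called. An unadjusted p under 0.05 was reached by 17 of 53 at this stage, against 19.5% of all genes, and Tfdp2 was just short of 2-fold (log2 fold change −0.996, edgeR adjusted p = 0.00537). Calls by DESeq2 were not drawn up for this list. At the adjusted p alone 2 were higher and 8 lower in 2-cell embryos (6.7% and 7.39% of all genes), 2 and 8 in 4-cell embryos (4.92% and 5.84%) and 1 and 2 in 8-cell embryos (1.5% and 3.56%). By group, those lower at the 4-cell stage were 4 of 11 genes of fork protection and the checkpoint, 1 of 12 initiation factors, 1 of 5 tested clamp regulators, 1 of 4 genes of topoisomerases and flap processing and 1 of 13 E2F and pocket protein genes. Those higher were 1 of 12 initiation factors and 1 of 8 genes of nucleotide supply. The MERVL-KD effect differed between the 2-cell and 4-cell stages at 2-fold for Tk1 (log2 fold change −1.17, edgeR adjusted p = 0.00112) and Tfdp2 (log2 fold change −1.46, edgeR adjusted p = 0.000421), 2 of 54 against 2.3% of all genes. Between the control 2-cell and 4-cell stages 9 of these 54 were called higher and 15 lower, against 20.7% and 24.3% of all genes, with 7 of 13 E2F and pocket protein genes among the latter.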

How the data were processed

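The authors counted reads per GENCODE gene and RepeatMasker family and deposited raw counts, without normalization. Per the labels and the study's methods, total RNA libraries were made with random primers and a kit that keeps the strand, and reads were aligned uniquely with STAR 2.5.3a to GRCm38 and counted with featureCounts. The counts show that strand was not used: 249 of 249 genes wholly covered by exons of the opposite strand had 0 counts. From 71.8% to 74.7% of genes with 1 to 50 counts had an even count, as arises when both reads of a pair are counted. Counts carry no molecular identifiers, and intervals and SEs cover the spread between these libraries.

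Groups came from the sample labels. edgeR 4.0.16 in R 4.3.3 (filterByExpr, TMM, robust quasi-likelihood fit) was run on all genes and repeat families, with Benjamini-Hochberg adjustment over all of them. Each MERVL-KD comparison used the 4 libraries of its stage, and stage steps and interactions used 1 fit of the 12. Percentages of all genes leave out repeat families. The study describes the 2 libraries of a group as biological replicates. In simulated counts, known changes were put into genes with a mean of at least 50 counts. At the adjusted p alone, 76.9%, 62% and 67% of 2-fold changes were found in the MERVL-KD comparisons, taken in order of stage. A call also needs an estimated difference of at least 2-fold, so fewer of these changes would be called, and that share was not measured.

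The 44 genes, the further lists and the rules for naming were chosen with earlier results of these data known. Named with values in every library were genes called in MERVL-KD or in an interaction, the 6 with the smallest p at each stage, the 3 with the largest change each way in each control step, and the lowest and highest of each complex. Alternatives were other scalings, filters, thresholds, DESeq2 1.42.0, 1 fit of all libraries, a replicate block and leaving out each library. The 12 ATAC-seq libraries were not analysed here.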

Additional observations from a re-analysis of the deposited data

Results flagged for a closer look

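For 2 of the 44 genes the MERVL-KD effect differed between the 2-cell and the 4-cell stage by the interaction term in edgeR. For Mcm9 the log2 fold change at the 4-cell stage minus that at the 2-cell stage was −1.66 (edgeR adjusted p = 0.0008), with overlapping groups at the 2-cell stage and both MERVL-KD libraries below both controls at the 4-cell stage. For Pole3 it was −0.78 (edgeR adjusted p = 0.0124), with both MERVL-KD libraries above the controls at the 2-cell and below them at the 4-cell stage.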

How the results depend on the processing

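Over 22 alternative settings, 113 counts of genes called were within 1.5 times the reported count and 15 were not, and 231 values of named genes stayed on their side of the threshold, 3 did not and 0 reversed. Most of these named genes were not called as reported, so the 231 say little about the calls. The 3 were called genes of the 2-cell stage, Rpa2 and Lig1 with library size alone and Lig1 without control replicate 1. Without the fold threshold, the genes that passed numbered 8, 5 and 4 in MERVL-KD against control at the 2-cell, 4-cell and 8-cell stages, 35 in the first control step, 38 and 3 in the first and second MERVL-KD steps and 2 in the first interaction. By construction, that setting admits smaller changes. With library size alone, 0 genes were called at the 2-cell stage and 3 in the first interaction (Mcm9, Pold1 and Pole3). DESeq2 and a filter of at least 1 count each called 2 there (Mcm9 and Pold1). Library size alone also moved the median log2 fold change of the members to 0.19 at the 2-cell stage, 0.53 and −0.15 in the control steps and 0.37 and 0.01 in the MERVL-KD steps. Relative to the median of all genes under the same scaling, these 5 medians were −0.11, 0.43, 0.06, 0.56 and 0.18. As reported, they were −0.11, 0.42, 0.06, 0.56 and 0.19 relative to all genes. Why the 2 scalings differ was not tested. Leaving out 1 library at a time, the count ran from 1 to 2 at the 2-cell stage (1 without control 2-cell replicate 1), from 1 to 2 at the 8-cell stage (2 without MERVL-KD 8-cell replicate 2) and from 1 to 2 in the first interaction (2 without control 2-cell replicate 1 or MERVL-KD 2-cell replicate 2). A group left with 1 library was assumed to vary like the others.

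With the replicate number as a block, 2, 1 and 1 genes were called in the MERVL-KD comparisons, 16 and 0 in the control steps, 19 and 0 in the MERVL-KD steps and 1 and 0 in the interactions, as without it. Among the named genes, Gmnn at the 8-cell stage had an edgeR adjusted p of 0.0392 under the block. Deviations of same-numbered libraries correlated at −0.0876 to 0.0390 over 15 pairs of groups, and the labels do not tie a number to a shared day, so the block was not taken as a pairing. Depth limits Pold4 (2 to 13 counts), Gins2 (21 to 326) and Fen1 (33 to 61).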
